A study of Homo sapiens with 12 samples.

Results

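HEK293T cells, a human embryonic kidney line, rescued with the DICER form called AA were compared with HEK293T cells rescued with DICER lacking its double-stranded RNA-binding domain (dsRBD deletion). These are 4 of the 12 libraries of the series, 2 per group, chosen by their labels, and all miRNA names listed for the line were used. Small RNA was read by AQ-seq, a small RNA-seq protocol built to lessen ligation bias. The labels do not say what AA changes, how much of each DICER form the cells made, whether a rescued population was 1 clone, or whether a group's libraries are separate cultures. The p-values therefore reflect library-to-library spread, which may be technical. The 2 HEK293T libraries rescued with WT DICER are given beside the values, and HCT116, a human colorectal carcinoma line rescued with the same forms, is used once for comparison.

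DICER cuts the hairpin precursor of a miRNA near its loop and leaves a duplex of a 5p and a 3p strand, 1 of which is loaded into an Argonaute protein. The C-terminal dsRBD of DICER contacts the double-stranded stem of the precursor. A loaded miRNA finds its messenger RNAs mainly through its seed, bases 2 to 8 from the 5′ end, so miRNAs with the same seed belong to 1 family even when they come from different genes.

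The mature sequences of 10 miRNAs are shown because members of 1 seed family moved by different amounts, or in different directions, between the AA and the deletion libraries (5′ to 3′, seed in capitals, from the RefSeq table for GRCh38.p14).
miR-93-5p: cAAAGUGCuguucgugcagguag
miR-17-5p: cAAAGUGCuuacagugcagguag
miR-20a-5p: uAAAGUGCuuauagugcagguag
miR-25-3p: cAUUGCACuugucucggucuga
miR-92a-3p: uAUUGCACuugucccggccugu
miR-15b-5p: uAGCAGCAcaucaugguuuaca
miR-15a-5p: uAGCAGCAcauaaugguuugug
miR-16-5p: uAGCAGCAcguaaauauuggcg
miR-19a-3p: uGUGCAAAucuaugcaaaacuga
miR-19b-3p: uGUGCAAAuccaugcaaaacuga

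The hairpins of 4 miRNAs whose levels or arm use differed widely are shown with the 5p and 3p strands in capitals, so that the lower-case stretch between them is the loop that DICER removes. MIR25 lies at chr7:100093560-100093643 on the minus strand in an intron of MCM7, and MIR629 at chr15:70079372-70079468 on the minus strand in an intron of TLE3. MIR193A lies at chr17:31559996-31560083 on the plus strand outside the annotated genes of that strand, and MIR19A at chr13:91350891-91350972 on the plus strand in an exon of the noncoding gene MIR17HG (GRCh38, GENCODE annotation).
MIR25: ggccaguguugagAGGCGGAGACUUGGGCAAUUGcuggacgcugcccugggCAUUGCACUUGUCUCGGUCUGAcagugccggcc
MIR629: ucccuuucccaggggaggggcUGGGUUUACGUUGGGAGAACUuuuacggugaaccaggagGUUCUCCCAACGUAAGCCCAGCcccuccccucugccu
MIR193A: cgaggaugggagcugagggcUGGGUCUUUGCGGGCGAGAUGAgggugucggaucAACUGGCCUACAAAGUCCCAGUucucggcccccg
MIR19A: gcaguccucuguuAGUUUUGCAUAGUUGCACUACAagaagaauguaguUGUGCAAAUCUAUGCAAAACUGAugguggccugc

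The AA libraries held 2897843 and 1440770 miRNA reads, the deletion libraries 1059778 and 1226813, and the WT libraries 2791656 and 3552613. A level of 3 reads corresponded to 1.11 and 2.15 CPM (reads scaled to a common library size by the TMM method) in the AA libraries, and to 2.65 and 2.30 CPM in the deletion libraries. Per read of the 30 spike-in RNAs there were 58.8 and 44.3 miRNA reads in the AA libraries, against 29.1 and 27.2 in the deletion libraries and 82.6 and 80.9 in the WT libraries. The AA mean was 1.83 times the deletion mean, which an exact two-sided permutation test of 2 against 2 libraries gives p = 0.33, the smallest p it allows. The spike-ins did not keep their own proportions: 20 of 30 (66.7%) changed between the AA and the deletion libraries by edgeR's quasi-likelihood test at an adjusted p under 0.05, 10 in each direction. Their changes around the median spike-in ran from −1.51 to 2.13 on the log2 scale. In HCT116, 0 of 30 spike-ins (0%) passed the same test and 1 had an unadjusted p under 0.05. The part of this shift in the miRNA results of HEK293T was not tested. The result that bears on it is given with the miRNA counts that follow.

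Of 1611 listed names, 626 passed the filter on low counts and were tested by edgeR's quasi-likelihood F test over the 6 HEK293T libraries, with Benjamini-Hochberg adjustment at 0.05. Of these, 457 (73%) passed: 226 names (36.1%) were higher with AA and 231 (36.9%) were lower than with the deletion. The rises were larger than the falls: 81 names were more than 8-fold higher and 21 more than 8-fold lower, and 45 were more than 16-fold higher against 4 more than 16-fold lower. The 2 AA libraries did not overlap the 2 deletion libraries for 549 of the 626 names (87.7%). Against a minimum change equal to the largest spike-in change, 70 names were still higher and 23 still lower with AA. Scaling by the spike-ins, which lifts the median change from −0.01 to 0.97 (spike-in size factors) or 0.70 (spike-in total), gave 322 or 289 names higher and 99 or 131 lower with AA. Library totals move the median to −0.18. All changes that follow are on the TMM scale, relative to the bulk of miRNAs.

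**Figure D1:**
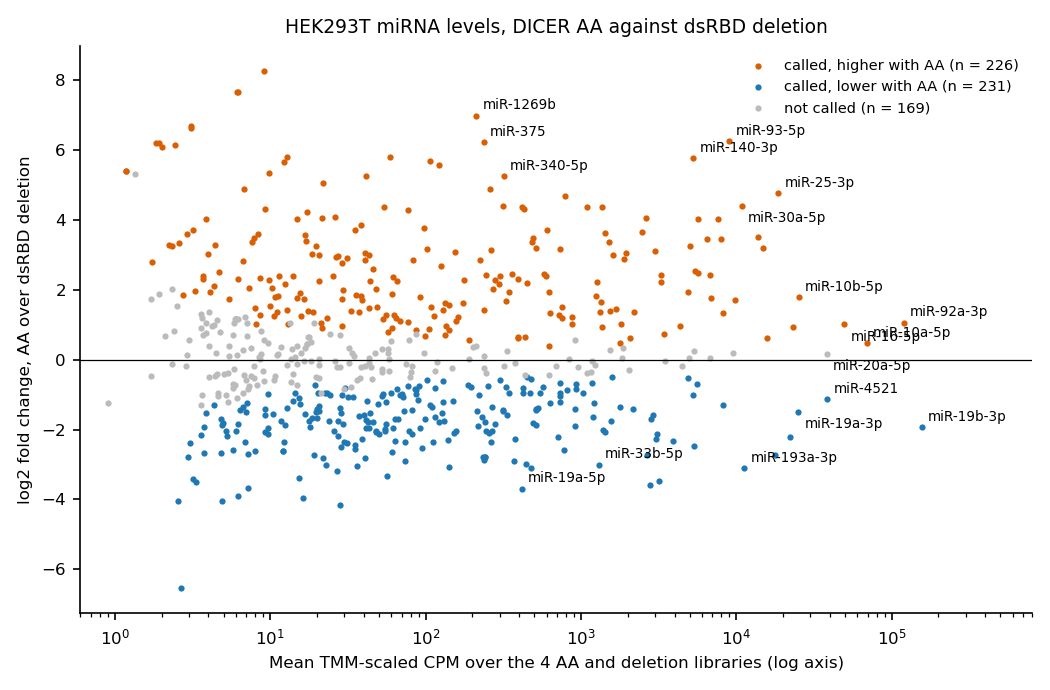
Each point is 1 of the 626 tested miRNA names: the horizontal axis is its mean level over the 4 AA and deletion libraries (TMM-scaled CPM, log axis) and the vertical axis its log2 fold change, AA over dsRBD deletion. Rises with AA reach higher than falls, and miR-93-5p, miR-140-3p, miR-25-3p and miR-30a-5p lie far above 0 among the abundant names.

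Among the called names of at least 100 CPM, the largest rises with AA included several of the most abundant miRNAs of the cells. miR-93-5p, a member of the miR-17 seed family that restrains the cell-cycle inhibitor CDKN1A, had 17329 and 18210.3 CPM in the AA libraries, against 246 and 219.6 CPM in the deletion libraries and 18025 and 21816 CPM in the WT libraries. It was 76.3-fold higher with AA (log2 fold change 6.25 ± 0.21 SE, adjusted p = 9.87e-09). Both AA libraries lay close to WT, and both deletion libraries lay far below them.

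miR-25-3p, which is cut from the neighbouring hairpin, had 33445 and 38347 CPM with AA, against 1293 and 1342 CPM with the deletion and 39413 and 53144 CPM with WT. Its log2 fold change was 4.77 ± 0.21. miR-106b-3p, from the third hairpin of that cluster, had 567 and 643 CPM with AA, against 28.2 and 29.1 CPM with the deletion (4.39 ± 0.21). In the AA libraries all 3 were at a level far from that of the deletion libraries, with no overlap between the groups.

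miR-140-3p, known from cartilage in mice, had 8972 and 11718.5 CPM with AA, against 175 and 207 CPM with the deletion and 7863 and 9539.8 CPM with WT (5.76 ± 0.24). miR-30a-5p, of the miR-30 family that targets the autophagy gene BECN1, had 21553 and 19793 CPM with AA, against 974 and 980.3 CPM with the deletion and 10047 and 13665 CPM with WT (4.40 ± 0.21). For miR-30a-5p the AA libraries stood above the WT libraries as well as above the deletion libraries. miR-1307-3p, whose hairpin lies in an exon of ATP5MD, had 1334 and 1702 CPM with AA, against 57.4 and 60.5 CPM with the deletion (4.68 ± 0.21).

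The other 6 large rises were nearly lost from the deletion libraries. miR-1269b had 399 and 439 CPM with AA, against 1.77 and 4.59 CPM with the deletion, which are 2 and 6 reads. The ratio of the pooled levels was 126, with an exact 95% counting interval of 63.7 to 292. miR-345-5p had 202 and 219 CPM with AA, against 2.65 and 5.36 CPM with the deletion, which are 3 and 7 reads (pooled ratio 50.8, interval 27.5 to 106). These intervals cover counting error only.

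miR-375, abundant in pancreatic islets, had 406 and 527 CPM with AA, against 7.06 and 5.36 CPM with the deletion (6.23 ± 0.31). miR-542-3p had 246 and 229 CPM with AA, against 4.41 and 5.36 CPM with the deletion (5.58 ± 0.30). miR-582-3p had 495 and 515 CPM with AA, against 15.9 and 18.4 CPM with the deletion (4.87 ± 0.26). In all 3 the libraries of a group were alike and the groups were far apart. miR-340-5p was less even: it had 743 and 499 CPM with AA, against 13.2 and 19.1 CPM with the deletion and 559 and 1253 CPM with WT (5.25 ± 0.45).

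Among the called names of at least 100 CPM whose groups did not overlap, the 12 largest falls with AA were led by miR-19a-5p. This is the rarer strand of the miR-19a hairpin. It had 55.9 and 63.8 CPM with AA, against 696 and 844 CPM with the deletion and 85.4 and 75.4 CPM with WT (log2 fold change −3.69 ± 0.21, adjusted p = 1.01e-07). Rarer names fell further. miR-193a-3p, the main strand of a hairpin known as a growth suppressor, had 2423 and 2259 CPM with AA, against 19589 and 20572 CPM with the deletion and 1903 and 1331 CPM with WT (−3.10 ± 0.21). At a mean of 20081 CPM it was 1 of the most abundant miRNAs of the deletion libraries and a minor one of the AA libraries.

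miR-33b-5p, cut from an intron of the sterol regulator gene SREBF1 and a repressor of the cholesterol exporter ABCA1, had 277 and 301 CPM with AA, against 2471 and 2153 CPM with the deletion (8.0-fold lower, SE 0.26 on the log2 scale). WT libraries held 269 and 152 CPM of it. miR-491-5p had 107 and 66.7 CPM with AA, against 652 and 650.5 CPM with the deletion (−2.89 ± 0.25). miR-29c-5p, the rarer strand of a miR-29 hairpin, had 61.1 and 56.6 CPM with AA, against 422 and 401 CPM with the deletion (−2.80 ± 0.19). For each of them both AA libraries were several-fold lower.

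From 1 cluster on chromosome X, miR-362-5p had 110.4 and 90.3 CPM with AA, against 889.7 and 827 CPM with the deletion (−3.09 ± 0.24), and miR-362-3p was 7.99-fold and miR-500a-5p 6.90-fold lower. miR-548a-3p had 58.2 and 57.3 CPM with AA, against 435 and 406 CPM with the deletion (−2.86 ± 0.21). miR-1268a and miR-1268b, whose mature sequences of 18 and 20 bases share their seed and so may share reads, fell by 3.58 and 3.47. Their libraries were uneven: miR-1268a had 626 and 221 CPM with AA, against 6404 and 3792 CPM with the deletion. miR-6087 fell by 3.08.

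All 24 of these names passed the test under each of the 17 other settings tried, including both spike-in scalings, the minimum change set by the spike-ins, and leaving out any 1 library. The AA mean was within 2-fold of the WT mean for 12 of the 12 rises and for 10 of the 12 falls. Over all 457 called names, the AA mean was nearer to the WT mean than the deletion mean was for 414 (90.6%, on log2 of CPM plus 1), 207 among the rises and 207 among the falls. These names were picked for a difference between AA and the deletion. The share was not taken over all tested names, so it has no background to be read against. Spike-in reads totalled 49245 and 32537 with AA, 36387 and 45028 with the deletion, and 33784 and 43905 with WT. Of these, the spike-in that fell most took 388 and 250, 995 and 1188, and 357 and 310. The spike-in that rose most took 5929 and 3826, 1206 and 1476, and 2078 and 3955. As a share, the spike-in that fell most stood apart in the deletion libraries. For the spike-in that rose most, the WT shares lay between those of AA and the deletion. The cause was not tested.

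**Figure D2:**
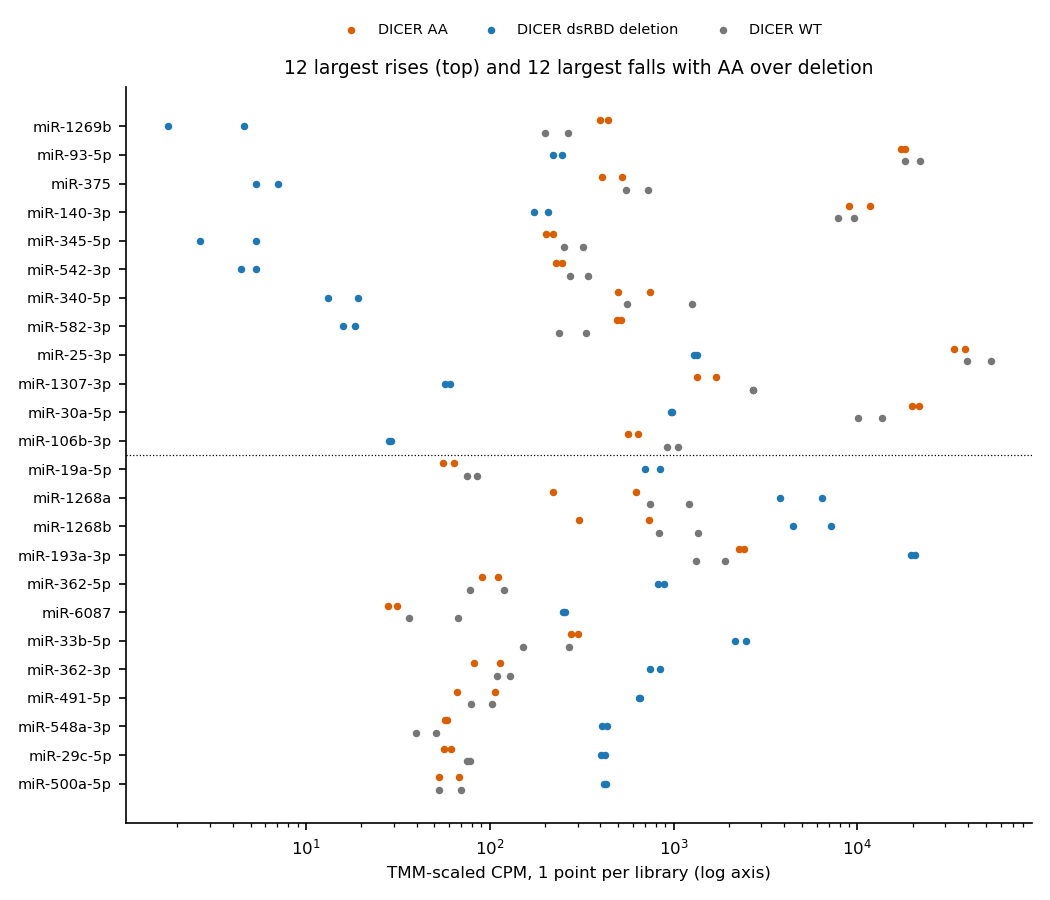
Levels of the 12 miRNAs with the largest rises (above the dotted line) and the 12 with the largest falls (under it) in each of the 6 HEK293T libraries, as TMM-scaled CPM on a log axis, 1 point per library. Both sets are called names of at least 100 CPM whose groups did not overlap. The AA points lie near the WT points in most lines and the deletion points stand apart, as for miR-93-5p (17329 and 18210.3 CPM with AA, 246 and 219.6 CPM with the deletion).

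let-7e-5p, named after its values were seen, rose with AA (1.73, adjusted p = 0.00453), yet its AA libraries lay far below WT: it had 31.5 and 18.6 CPM with AA and 9.71 and 6.12 CPM with the deletion, against 247 and 362 CPM with WT. The 3p share of the reads of the miR-324 hairpin, which is known to be cut by DICER at more than 1 position, was 17.8% and 22.5% with AA and 20.7% and 20.2% with the deletion, against 50.9% and 49.4% with WT. Its arm use did not pass the test between AA and deletion (adjusted p = 0.884). Both strands fell on the TMM scale, miR-324-5p by 0.68 (adjusted p = 0.00783) and miR-324-3p by 0.73 (adjusted p = 0.00957), and both had positive, uncalled changes with spike-in size factors. Neither passed with no filter on low counts (−0.48 and −0.54), miR-324-3p did not pass without any 1 of the 4 AA and deletion libraries (−0.68 to −0.52), and miR-324-5p did not pass without AA replicate 2, deletion replicate 1 or deletion replicate 2 (−0.53 to −0.42). miR-451a, which is matured by AGO2 without DICER, had 24.8 and 22.9 CPM with AA, against 118 and 129 CPM with the deletion and 28.0 and 24.8 CPM with WT (−2.36 ± 0.24, adjusted p = 8.82e-06). It did not pass against the minimum change set by the spike-ins.

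The most abundant miRNA of the deletion libraries was miR-19b-3p, which belongs to the miR-17-92 cluster. It had 71376 and 58865 CPM with AA, against 246933 and 248275 CPM with the deletion and 55606.5 and 50269 CPM with WT. It fell by 1.93 (± 0.16 SE, adjusted p = 2.08e-06). The most abundant miRNA of the AA libraries was miR-92a-3p, the last member of the same cluster, with 155419 and 168277 CPM with AA, against 77430.4 and 78011 CPM with the deletion (1.06 ± 0.16). In the AA libraries miR-92a-3p thus exceeded miR-19b-3p, and in the deletion libraries miR-19b-3p exceeded miR-92a-3p. None of the 8 most abundant names passed against the minimum change set by the spike-ins.

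Of the other 6 most abundant names, miR-16-5p had 71437 and 61139 CPM with AA, against 33500.5 and 32278 CPM with the deletion (1.01 ± 0.16). miR-10b-5p, encoded in a HOX cluster, had 38168 and 39889 CPM with AA, against 11513 and 11161 CPM with the deletion (1.78 ± 0.18). Its relative miR-10a-5p changed little, with 82286 and 77675 CPM with AA, against 59078 and 56432 CPM with the deletion (0.47 ± 0.16, adjusted p = 0.0202), and did not pass the test with library totals (0.30). miR-19a-3p had 14526 and 11873 CPM with AA, against 36798 and 37067 CPM with the deletion (−1.48 ± 0.17), and did not pass with spike-in size factors (−0.50). miR-4521 had 18931 and 29337.5 CPM with AA, against 41396 and 64184 CPM with the deletion (−1.13 ± 0.27). On a fold scale its libraries differed more within each group than the nearest libraries of the 2 groups did. Without deletion replicate 2 its change was −0.55 and did not pass. miR-20a-5p had 45908 and 34990 CPM with AA, against 36696 and 35036.5 CPM with the deletion (0.17 ± 0.17, adjusted p = 0.380), so the groups overlapped. Without AA replicate 1 its change was −0.020, and without AA replicate 2 it was 0.50 and passed.

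Members of several seed families changed by different amounts or in opposite directions. Against the minimum change set by the spike-ins, 39 of the named miRNAs lost their call. Among them were miR-17-5p, miR-92a-3p, miR-19a-3p, miR-19b-3p, miR-125b-5p and miR-130b-3p. The 5 tested names with the seed AAAGUGC, of the miR-17 family that promotes cell cycle entry, changed by 0.17 to 6.25 on the log2 scale. 4 of them rose (80%) and none fell, beside 36.1% and 36.9% of all tested names. Besides miR-93-5p, miR-17-5p had 33549 and 27375 CPM with AA, against 16738 and 15292 CPM with the deletion (0.93 ± 0.17). Summed over the family there were 104516 and 86972 CPM with AA, against 54986 and 51792.5 CPM with the deletion, a ratio of 1.79. miR-20a-5p, which was not called, and miR-93-5p therefore carry the same seed.

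The AUUGCAC family held miR-25-3p and miR-92a-3p, both higher, miR-92b-3p, also higher (3401 and 3548 CPM with AA, against 451 and 393 CPM with the deletion, 3.04 ± 0.19), and miR-32-5p, which fell by 0.48. Its summed level was 193686 and 211381 CPM with AA, against 81085 and 81515 CPM with the deletion, a ratio of 2.49. The miR-19 family, seed GUGCAAA, went the other way: its 2 members summed to 85903 and 70738 CPM with AA, against 283731 and 285342 CPM with the deletion, a ratio of 0.275.

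Opposite changes within a seed were also seen in the miR-15 and miR-16 family, seed AGCAGCA, which lowers BCL2 and G1 cyclins. miR-15a-5p had 7789 and 7619 CPM with AA, against 1899 and 2162 CPM with the deletion (1.92 ± 0.16). miR-15b-5p had 8093 and 7619 CPM with AA, against 33461 and 39168 CPM with the deletion (−2.21 ± 0.17). The AA libraries thus held nearly equal amounts of these 2 miRNAs, and the deletion libraries held many times more miR-15b-5p. Neither miRNA passed against the minimum change set by the spike-ins, nor did miR-16-5p. Of the 6 members tested, 3 rose (also miR-16-5p and miR-424-5p) and 3 fell (also miR-195-5p and miR-497-5p). These shares of 50% and 50% stand beside 36.1% and 36.9% of all tested names. Their sum hardly differed, with 90597 and 79221 CPM with AA, against 74429 and 79270.2 CPM with the deletion, a ratio of 1.10. The median over the 6 was 0.03, and −0.14 with library totals.

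In other families all tested members rose, beside 36.1% of all tested names. The miR-26 family, which restrains EZH2, was 12.5-fold higher as a sum, with 40049 and 31601 CPM with AA, against 2895 and 2832 CPM with the deletion. miR-26a-5p had 27440.1 and 22909 CPM with AA, against 2202.2 and 2200.2 CPM with the deletion (3.52 ± 0.18), and miR-26b-5p rose by 4.01 ± 0.25. The miR-103 and miR-107 pair, known from insulin sensitivity in mice, was 15.8-fold higher as a sum, with 6248 and 5900 CPM with AA, against 361 and 408 CPM with the deletion. The AA level of this pair was below that of WT, which had 12599 and 11892.5 CPM.

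The 3 miR-148/152 names, a family that targets DNMT1, all rose, by 1.95 to 3.61, and all 4 of the miR-181 family, known from lymphocytes, by 2.21 to 4.28. miR-181a-5p had 8876 and 10354.5 CPM with AA, against 1677 and 1808 CPM with the deletion. miR-221-3p and miR-222-3p, 1 gene pair that lowers CDKN1B, rose by 2.21 and 4.35. miR-222-3p had 2030.4 and 2114 CPM with AA, against 109 and 94.1 CPM with the deletion. The 3 tested members of the miR-378 family rose by 3.08 to 3.46, and miR-378a-3p had 11927.5 and 11769 CPM with AA, against 1127 and 1022 CPM with the deletion. The 3 miR-29 members, which repress collagen genes, rose by 0.94 to 2.89, and miR-29b-3p was uneven with 599 and 223 CPM with AA, against 78.6 and 75.8 CPM with the deletion. Of the 5 miR-30 members 4 rose (80%, beside 36.1% of all tested names), and miR-30d-5p was not called (0.20). Against the minimum change set by the spike-ins, miR-152-3p, miR-181a-5p, miR-181b-5p and miR-221-3p lost their calls. So did miR-29b-3p, miR-29c-3p, miR-30b-5p and miR-30e-5p.

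The remaining families were mixed. Of the 9 let-7 5p strands, which restrain LIN28, RAS and HMGA2, 1 rose (11.1%) and 3 fell (33.3%), beside 36.1% and 36.9% of all tested names, with a median of −0.23 that turns positive with either spike-in scaling (0.75 and 0.47). let-7a-5p had 3847 and 3023 CPM with AA, against 4021 and 3101 CPM with the deletion (−0.05, adjusted p = 0.852), so the groups overlapped. let-7c-5p had 456 and 290 CPM with AA, against 958 and 817 CPM with the deletion (−1.24 ± 0.24), a call that did not hold with either spike-in scaling. Of the 6 tested members of the miR-10, miR-99 and miR-125 lineage 2 rose (33.3%) and 3 fell (50%), and miR-125b-5p had 2265 and 1032 CPM with AA, against 8425 and 9718 CPM with the deletion (−2.46 ± 0.31). The median of this lineage, −0.27, also turns positive with both spike-in scalings (0.71 and 0.43).

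miR-130b-3p had 1551 and 1110.3 CPM with AA, against 4355 and 4289 CPM with the deletion (−1.70 ± 0.19), while miR-454-3p, with the same seed, had 960 and 641 CPM with AA, against 40.6 and 37.5 CPM with the deletion (4.36 ± 0.26). In the miR-193 and miR-365 family miR-193a-3p fell, and miR-193b-3p, with the seed of miR-193a-3p, rose by 0.65 (adjusted p = 0.00936), a call that did not hold without AA replicate 1 (0.61, adjusted p = 0.0515). Among the 5 miR-23/24/27 names 3 rose and miR-23a-3p fell by 1.24, which did not pass with either spike-in scaling, while miR-27a-3p was not called (−0.05, adjusted p = 0.827). Among the rises, miR-24-3p (0.47) did not pass with library totals or without deletion replicate 1, deletion replicate 2 or AA replicate 1. The miR-548 family, a large primate family with overlapping sequences, had 26 of 60 listed names tested, and 15 of these fell (57.7%, against 36.9% of all tested names) and 7 rose (26.9%, against 36.1%), with a median of −1.27. Because the names share sequence, their reads may be split between them.

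Neighbouring hairpins were compared by the more abundant of the tested strands that the RefSeq table lists for each. Among 40 clusters of hairpins within 10000 bases on 1 strand with such strands from at least 2 hairpins, 12 held both called rises and called falls, 21 only rises, 5 only falls and 2 no call. Some of these names are also made from genes elsewhere. Strands not matched in the RefSeq table were left out, so some hairpins were read by their rarer strand. MIR374A was read by miR-374a-3p (1.23) and not by the more abundant miR-374a-5p (0.04). Its cluster with MIR545 is among the 12 through that rarer strand. MIR425 was read by miR-425-3p (0.66) and not by the more abundant miR-425-5p (4.36). In the miR-17-92 cluster (chr13:91350605-91351391) 12 names were tested, of which 3 rose and 7 fell. Both strands of miR-17 rose by about the same amount (0.93 and 1.03), miR-18a-5p fell by 0.53 and miR-18a-3p by 1.45, and the strands of miR-19a and miR-19b-1 fell by 1.48 to 3.69. In the miR-106b-25 cluster (chr7:100093560-100094074, in MCM7) 5 names rose and miR-25-5p alone fell, by 1.39, so the more abundant strand of each of its 3 hairpins rose.

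In the pair MIR15B and MIR16-2, in an intron of SMC4 (chr3:160404588-160404825), miR-15b-5p fell by 2.21, and miR-16-2-3p rose by 1.37. miR-16-5p rose too, but it is also made from a second gene. The cluster from MIR532 to MIR502 on chromosome X, in an intron of CLCN5, had 3 names that rose and 10 that fell, among strands matched in the RefSeq table. miR-660-5p, not matched there, also fell on the TMM scale, by 0.54. Its change was positive and uncalled with either spike-in scaling (0.45 and 0.18). The first hairpin of the cluster gave miR-532-5p, with 878 and 942 CPM with AA, against 352 and 368 CPM with the deletion (1.34 ± 0.16). The next hairpin gave the rarer miR-188-5p, with a mean of 21.7 CPM over the AA and deletion libraries, which rose by 5.04 ± 0.60. Further along, both strands of miR-500a and miR-362 fell, by 1.01 to 3.09. miR-500a-5p and miR-500b-5p are near copies and may share reads.

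**Figure D3:**
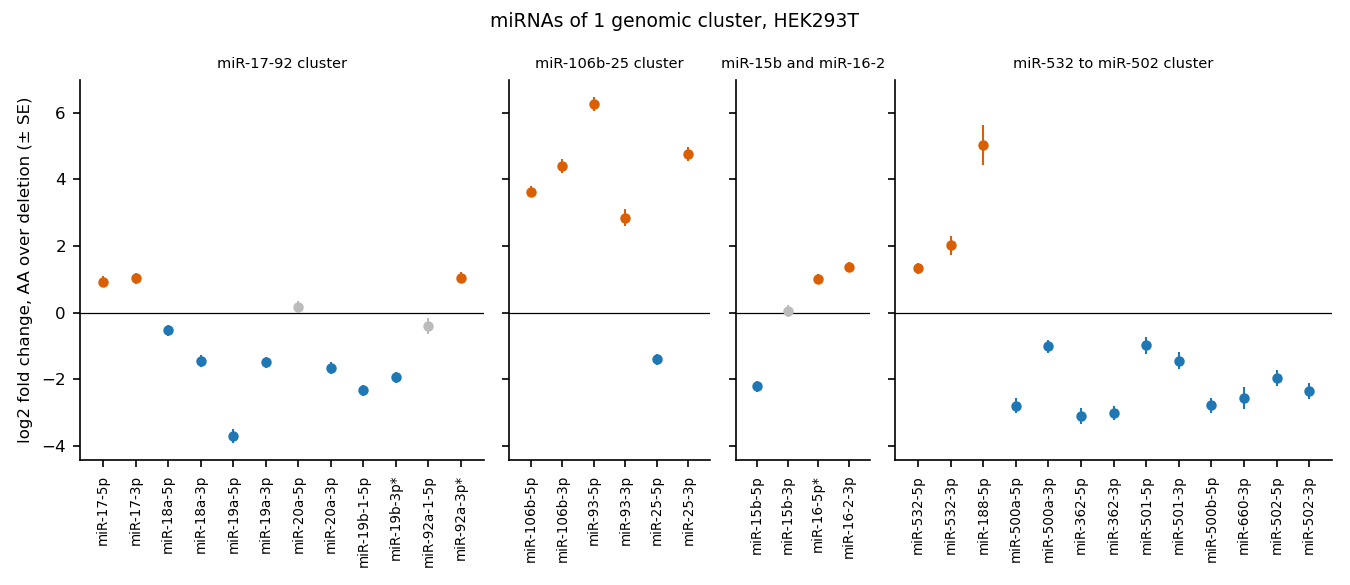
log2 fold change, AA over dsRBD deletion, with its SE, for the tested miRNAs of 4 genomic clusters in the order of their hairpins from 5′ to 3′ (orange, called higher with AA; blue, called lower; grey, not called; a star marks names that are also made from another gene). Each cluster spans both directions, from −3.69 to 1.06 in the miR-17-92 cluster and from −1.39 to 6.25 in the miR-106b-25 cluster.

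The 2 strands of 1 hairpin name were compared as the ratio of 3p to 5p reads, which does not depend on how libraries are scaled. Ratios between spike-ins moved as well, since their changes around the median spike-in ran from −1.51 to 2.13 on the log2 scale. No minimum change set by the spike-ins was applied to arm use, so their part in these shifts was not tested. Of 515 hairpin names with both strands listed, 180 had enough reads, and arm use moved toward 3p with AA for 54 (30%) and toward 5p for 41 (22.8%) by edgeR's quasi-likelihood test of the interaction of strand and group at an adjusted p of 0.05. By the RefSeq table, 137 of the 180 names take both strands from the same single gene, 4 from the same set of genes and 8 from sets of genes that differ, and for 31 a strand was not matched. A hairpin can hold a strand that the table does not list for its gene, as MIR101-1 and MIR550A1 do.

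The hairpin of miR-25, printed with the opening sequences, had 99.1% and 99.3% of its reads on the 3p strand with AA, against 63.0% and 63.3% with the deletion and 98.7% and 98.9% with WT (log2 change of the ratio 6.16 ± 0.20, adjusted p = 3.91e-16). Its 3p strand rose and its 5p strand fell. The RefSeq table gives the names miR-550a-5p and miR-550a-3p to 2 genes each, of which they share 1, MIR550A2. The hairpin of MIR550A1, listed for the 5p strand only, also holds the miR-550a-3p sequence. The ratio of these 2 names is therefore not that of 1 hairpin. Of their reads 82.7% and 85.9% were 3p with AA, against 26.7% and 25.6% with the deletion and 83.0% and 83.0% with WT (3.92 ± 0.27). For both names the libraries of a group differed by a few percentage points at most.

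Likewise, miR-29a had 97.9% and 98.6% 3p reads with AA, against 73.1% and 76.6% with the deletion (4.21 ± 0.30). miR-505 had 97.4% and 97.9% with AA, against 64.5% and 75% with the deletion (4.14 ± 0.36). miR-101-3p had 99.7% and 99.7% of the summed reads of miR-101-3p and miR-101-5p with AA, against 90.8% and 88.7% with the deletion (5.12 ± 0.28). The table gives these strands to different genes, MIR101-2 and MIR101-1, but the MIR101-1 hairpin also holds the miR-101-3p sequence. Reads of miR-101-3p may thus come from either gene. For miR-29a, miR-505 and miR-101 the deletion libraries held more of the strand that is rare in AA and WT libraries. For miR-146b the 3p share was 6.68% and 11.98% with AA, against 0 of 15 and 0 of 36 reads with the deletion, which allows shares of up to 20% and 8.33%. Its call (adjusted p = 0.0233) did not hold without deletion replicate 2 (adjusted p = 0.198) or with the 4 AA and deletion libraries alone (adjusted p = 0.0675).

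The same pattern was seen for hairpins whose main strand is 5p. miR-629, the hairpin shown at the start, had 7.94% and 7.98% 3p reads with AA, against 56.9% and 57.8% with the deletion and 17.1% and 9.85% with WT (−3.96 ± 0.31). miR-425 had 4.10% and 4.99% with AA, against 45.4% and 31.6% with the deletion and 4.15% and 4.01% with WT (−3.70 ± 0.32). miR-93 had 2.18% and 2.13% with AA, against 19.1% and 18.5% with the deletion (−3.40 ± 0.28). miR-34a, whose gene is switched on by the tumour suppressor p53, had 0.913% and 0.725% with AA, against 8.69% and 7.50% with the deletion (−3.41 ± 0.21).

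The 5p strand miR-34a-5p rose by 3.18 and the 3p strand of that hairpin was not called (−0.23). The miR-182 hairpin moved from a low base, with 0.135% and 0.114% 3p reads with AA, against 0.786% and 1.20% with the deletion (−3.01 ± 0.50). miR-551b, whose main strand is 3p, was the exception among the 6 hairpins with the largest moves toward 5p: it had 94.7% and 95.6% 3p reads with AA, against 99.4% and 99.3% with the deletion (−2.90 ± 0.35).

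**Figure D4:**
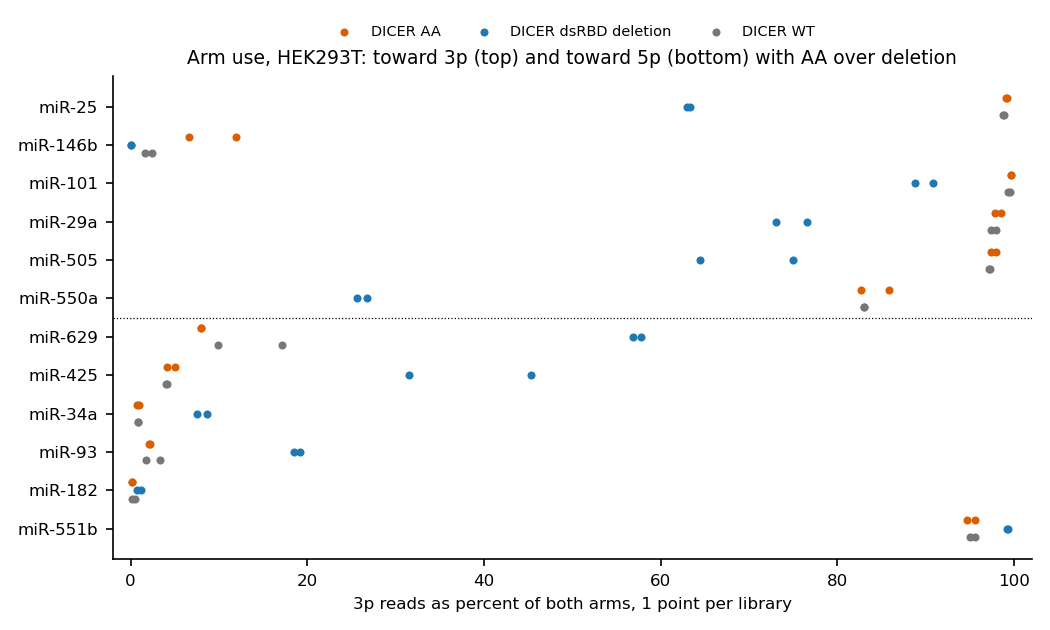
Share of 3p reads among the reads of both strands in each HEK293T library, for the 6 hairpin names that moved most toward 3p with AA (above the dotted line) and the 6 that moved most toward 5p (under it). AA and WT points lie together near the edges in most lines, and the deletion points lie toward the middle, as for miR-629 (7.94% and 7.98% with AA, 56.9% and 57.8% with the deletion).

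Mature sequences were found for 546 of the 626 tested names, of which 36.8% rose and 36.6% fell. The 200 that start with U rose in 45.0% and fell in 31.0% of cases (median change 0.57), and the 162 that start with A rose in 30.9% and fell in 42.6% (median −0.45). Short mature sequences were seldom higher with AA: of 20 names of 20 bases, 1 rose and 12 fell. Of the 119 names with a GC content of at least 60%, 26.9% rose and 47.9% fell. Names without a strand suffix, which the nomenclature gives to miRNAs with 1 known strand, fell more often too: of 118, 22 rose and 53 fell, with a median of −0.71. Of the 256 names ending in 5p, 100 rose and 98 fell, and of the 252 ending in 3p, 104 rose and 80 fell.

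DICER sets the last bases of the 5p strand and the first bases of the 3p strand. Among 241 hairpins with both strands annotated, the more abundant strand rose in 44.0% and fell in 34.9%. Where the 5p strand ends in U (78 hairpins) it rose in 55.1% and fell in 21.8% (median 0.95). Where it ends in A (52 hairpins) it rose in 34.6% and fell in 42.3% (median −0.13). Where the 3p strand starts with U (78 hairpins) it rose in 53.8% and fell in 26.9% (median 1.04). These shares describe annotated ends, not the ends of the reads, and share hairpins with each other.

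The 6 markers listed for HEK293T summed to 385724 and 375671 CPM with AA, against 419234 and 415440 CPM with the deletion. The sum hides their directions: 4 of the 6 rose and 2 fell, with a median of 0.70. The largest fall, of 1.93, was that of miR-19b-3p, the most abundant miRNA of the deletion libraries. Markers of HCT116 and other epithelia summed to 8261 and 8173 CPM with AA, against 6458 and 6851 CPM with the deletion, mostly miR-31-5p. miR-200a-3p, miR-200b-3p and miR-205-5p had at most 18 reads in any AA or deletion library. The 14 listed markers of other tissues summed to 6736 and 6932 CPM with AA, against 3284 and 3487 CPM with the deletion. Most of this was miR-9-5p, with 5734 and 5759 CPM with AA, against 2849 and 2998 CPM with the deletion, and the liver marker miR-122-5p and the muscle markers miR-1-3p and miR-133a-3p had at most 5 reads.

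The same 2 forms differed in HCT116 as well, in libraries other than those of HEK293T: 449 of 795 tested names passed the test there (56.5%), of which 235 (29.6%) were higher with AA and 214 (26.9%) were lower. Over 539 names tested in both lines the changes correlated at Pearson's r = 0.605 and Spearman's rho = 0.612, as a description across miRNAs, which are not independent replicates. Of the 200 HEK293T rises among these names, 65.0% were also called higher in HCT116, and of the 202 falls 54.0% were also called lower. 23 names rose in HEK293T and fell in HCT116, and 19 did the reverse. Of the 12 large rises named above, 9 were called in the same direction in HCT116, miR-340-5p was not called and miR-1269b and miR-582-3p were not tested there. Of the 12 large falls named above 11 were called in the same direction, and miR-33b-5p was not called. Among the others miR-140-3p was similar in both lines, with 5.76 in HEK293T and 4.91 in HCT116.

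The difference between the lines itself was tested over all 12 libraries for 844 names. The change with AA was higher in HEK293T for 107 (12.7%) and lower for 204 (24.2%). With DESeq2 size factors the split was 141 against 145, and the median difference moved from −0.43 to −0.04. miR-93-5p had a larger rise in HEK293T, where it had 18113 and 18996 CPM with AA, against 273 and 239 CPM with the deletion. In HCT116 it had 5915 and 6376 CPM with AA, against 2309 and 2277 CPM with the deletion, on the scale of the joint fit, and the difference of the changes was 4.76 ± 0.28 (adjusted p = 2.35e-11).

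miR-30a-5p, miR-182-5p and miR-21-3p were also moved more in HEK293T (differences of 3.25, 3.54 and 3.50). The reverse held for miR-27b-3p, which in HEK293T had 1139 and 1045 CPM with AA, against 484 and 526 CPM with the deletion. In HCT116 it had 5356 and 4939.5 CPM with AA, against 153 and 150.4 CPM with the deletion (difference −3.98 ± 0.25). miR-27a-3p changed in the joint fit by −0.12 in HEK293T and by 3.55 in HCT116 (difference −3.67 ± 0.23). miR-324-5p changed in the joint fit by −0.76 in HEK293T and 0.82 in HCT116, and miR-324-3p by −0.81 and 1.25, with differences of −1.58 and −2.05 that both passed the test.

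**Figure D5:**
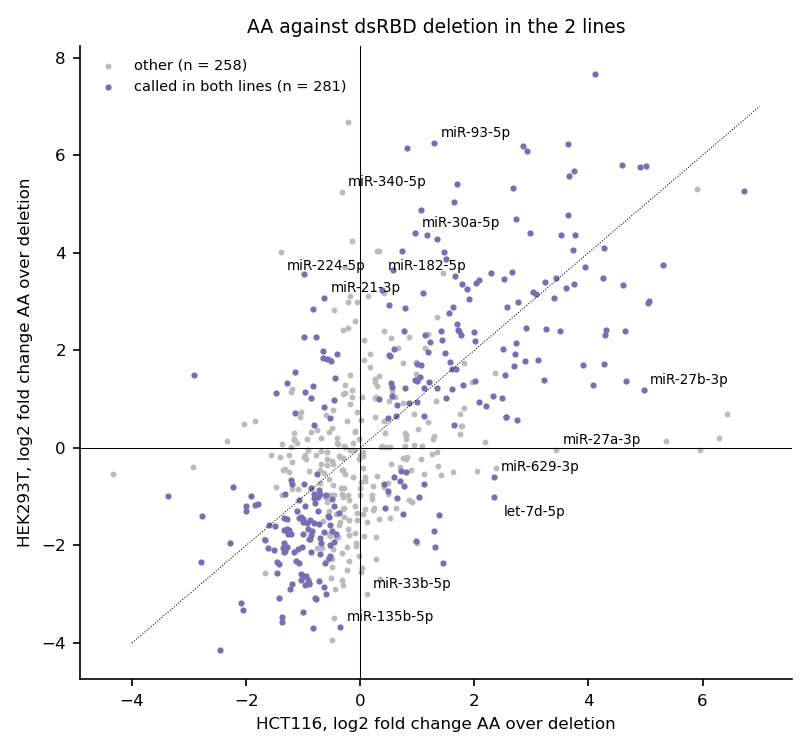
log2 fold change, AA over dsRBD deletion, in HEK293T (vertical axis) against HCT116 (horizontal axis) for the 539 miRNA names tested in both lines, with the 281 called in both lines in purple and the dotted line marking equal change. Most points called in both lines lie in the upper right or lower left, and the labelled names, such as miR-93-5p and miR-27b-3p, lie far from the line of equal change.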

How the data were processed

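The authors deposited raw counts in 1 table per library, with rows for miRNA names and for spike-ins. The submitters' processing notes name cutadapt, BWA and bedtools and the builds hg38 and mm10. Their versions, the miRNA annotation and the handling of reads matching several names were not given in these sources. Library totals ran from 1059778 to 3552613 miRNA reads in HEK293T.

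Counts were tested in R 4.3.3 with edgeR 4.0.16 (quasi-likelihood F test, TMM over miRNA rows, filterByExpr by group with a minimum count of 10) on all 6 HEK293T libraries, leaving 3 residual degrees of freedom. Adjustment was by Benjamini-Hochberg at 0.05 over all tested names. Each SE was taken as the log2 fold change over the root of its F value. Spike-in reads did not count toward library sizes. Arm use needed at least 10 reads per strand in at least 2 libraries, with library as a block. On simulated data with 623 names, the level test recovered 72.2% of 2-fold and 96.9% of 4-fold changes, and 5.78% of its calls were false. The simulation changed 97 names by 2-fold and 96 by 4-fold, a smaller share than was called here. It drew counts independently and held no shift like that of the spike-ins. Its share of false calls therefore need not hold for these libraries. DESeq2 1.42.0 and limma 3.58.1 served the alternatives. Figures were drawn with matplotlib 3.10.9 in Python 3.11.15.

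Named miRNAs are the 12 largest called rises and falls whose groups did not overlap at a mean of at least 100 CPM, the 8 most abundant, the 3 most abundant members of each list described, miR-451a and both strands of miR-324. For arms and for the line difference they are the 6 largest called in each direction at a mean of at least 100 CPM. The members and lists were chosen with earlier results of these data known. Other members named beside them were chosen after their values were seen. AA and deletion libraries of equal replicate number were checked for shared deviations. With only 2 pairs (correlation 0.115) the numbers were not used as pairs.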

Additional observations from a re-analysis of the deposited data

Results flagged for a closer look

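The change with AA over the deletion differed between HEK293T and HCT116 for 12 miRNAs, each by the edgeR test of the difference itself (HEK293T minus HCT116, adjusted p under 0.05), and each call held under all alternatives run for it. A minimum change set by the spike-ins was not among these alternatives. By the edgeR test, 20 of 30 spike-ins were called in HEK293T and 0 of 30 in HCT116, and their part in the line difference was not tested. The difference was 5.39 on the log2 scale for miR-340-5p, 4.76 for miR-93-5p, 3.54 for miR-182-5p, 3.53 for miR-224-5p, 3.50 for miR-21-3p and 3.25 for miR-30a-5p. It was −3.98 for miR-27b-3p, −3.67 for miR-27a-3p, −3.53 for let-7d-5p, −3.53 for miR-135b-5p, −3.32 for miR-33b-5p and −3.14 for miR-629-3p. miR-340-5p was uneven in HCT116, with 544 and 133 CPM with AA, against 403 and 379 CPM with the deletion. miR-135b-5p was rare in HEK293T, with 0.775 and 1.50 CPM with AA, against 18.6 and 10.8 CPM with the deletion, while in HCT116 it had 3425 and 3318 CPM with AA, against 3776 and 4107 CPM with the deletion.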

How the results depend on the processing

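The 24 largest changes among called names of at least 100 CPM whose groups did not overlap passed the test in the same direction under all 17 other settings. The counts of calls in HEK293T stayed within 1.5 times (197 to 322 higher, 169 to 244 lower) except that spike-in size factors gave 99 lower, the spike-in total 131 lower, and a minimum change set by the spike-ins 70 higher and 23 lower. Leaving out 1 library gave 197 to 233 higher and 169 to 226 lower. In HCT116 the spike-in scalings gave 476 and 530 higher and 14 and 10 lower, no filter gave 141 lower, and leaving out 1 library gave 104 (without AA replicate 1) to 199 lower, with 129 without AA replicate 2. The line difference gave 69 higher with the spike-in total. Of the spike-ins, 13 (without AA replicate 2) to 20 were called when 1 library was left out. With the replicate number as a block, 229 names were higher and 232 lower in HEK293T, and no called miRNA among those named lost its call. Against the minimum change set by the spike-ins, 39 of those named lost their call.

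Signs turned for names and lists near 0, and the cause was not tested. With spike-in size factors and the spike-in total, miR-324-5p gave 0.30 and 0.029, let-7a-5p 0.94 and 0.66, miR-27a-3p 0.93 and 0.66, miR-660-5p 0.45 and 0.18, the let-7 median 0.75 and 0.47, and the miR-10, miR-99 and miR-125 median 0.71 and 0.43. miR-324-3p gave 0.23 with spike-in size factors. DESeq2 size factors and the DESeq2 test gave 0.026 each for let-7a-5p and 0.042 each for miR-27a-3p. No filter, a mean of at least 10 CPM and the 4 libraries alone gave 0.16, 0.018 and 0.078 for let-7a-5p, and 0.15, 0.020 and 0.082 for miR-27a-3p. Library totals gave −0.14 for the miR-15 and miR-16 median and −0.094 for the 5p median. Leaving out 1 library gave −0.020 to 0.50 for miR-20a-5p, −0.22 to 0.26 for let-7a-5p and −0.059 to 0.16 for miR-27a-3p. Depth limits the rare names: 3 reads are 1.11 to 2.65 CPM in the AA and deletion libraries.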
